A study of Mus musculus with 2 samples.

Results

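The epithelial tissue kallikreins Klk5, Klk6, Klk7, Klk8, Klk10, Klk11, Klk13 and Klk14 were examined in mouse prostaspheres with and without Sox9. Members were taken by name: every non-control spot on both arrays whose gene name was one of the 8 listed. The array held 9 probes for 7 of these genes, out of 41174 probes and 27827 gene names in all. Klk7 had 3 probes, the other 6 genes had 1 each, and Klk13 had a probe neither by name nor by RefSeq accession. Each of the 9 accessions led to the same symbol in RefSeq.

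Tissue kallikreins are secreted serine proteases whose genes lie side by side in 1 cluster. The epithelial members are best known from skin and other stratified epithelia, where Klk5, Klk7 and Klk14 cleave the junctions between cornified cells and the inhibitor Spink5 holds them in check. They are made as inactive precursors, and they can activate each other as well as cell surface receptors of the PAR family.

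Prostaspheres form when single prostate epithelial cells are grown in matrigel. RNA from them was hybridized to 2 arrays of 1 slide, each of which compared Sox9-expressing RNA labeled with Cy5 against Sox9-deleted RNA labeled with Cy3. In the genotype comparison, the cells were wild type (Cy5) or ER-Sox9flox/flox (Cy3), and both received tamoxifen (TAM). In the treatment comparison, all cells were ER-Sox9flox/flox and received vehicle (Cy5) or TAM (Cy3). Floxed Sox9 alleles are combined there with ERCre, a Cre recombinase that TAM switches on and that is not limited to 1 cell type. All 4 RNAs are labeled C57/Bl6J. The cultures had 6 days in matrigel with dihydrotestosterone, followed by 6 days of 5 µM TAM or vehicle. By the labels the cells came from urogenital sinus epithelium at 16 dpc, while the methods start prostaspheres from adult prostate.

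The design sets limits on every value. Each RNA was 1 preparation, and nothing says how many animals or cultures went into it, so n = 2 arrays. The p-values measure only the spread between these arrays, which limma estimates for each probe in part from all tested probes. The wild-type and ER-Sox9flox/flox RNAs differ in mouse line as well as in Sox9, and the vehicle and TAM RNAs differ in TAM. No dyes were swapped, so the dye and the Sox9 status cannot be told apart for any single gene. Sox9 itself, the deleted gene, had 3 probes. Log2 ratios of Sox9-expressing over Sox9-deleted RNA were 2.69 and 2.37 for one and 1.18 and 1.27 for another on the genotype and treatment arrays, while the last was lower on both, with a mean of -1.11 ± 0.16 (SD, n = 2). Where these probes lie relative to the floxed part was not tested.

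The probe of Klk8, on which most results rest, is shown with those of the skin proteases Klk5, Klk14 and Klk7. The scanner software marked none of these 3 as well above background in any RNA. Each probe shown is written 5′ to 3′ as deposited. The longest run shared with a probe of any other gene on the array, on either strand, is in capitals. Coordinates are those of the scanner file annotation, which names mm9. The Klk8 probe lies at chr7:51057455-51057514, the Klk5 probe at chr7:51106169-51106228, the Klk14 probe at chr7:50949743-50949802 and the Klk7 probe at chr7:51068393-51068639.
Klk8: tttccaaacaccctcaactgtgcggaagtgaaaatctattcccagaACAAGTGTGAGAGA
Klk5: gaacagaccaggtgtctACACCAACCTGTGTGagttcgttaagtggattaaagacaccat
Klk14: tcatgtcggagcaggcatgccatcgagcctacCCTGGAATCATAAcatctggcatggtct
Klk7: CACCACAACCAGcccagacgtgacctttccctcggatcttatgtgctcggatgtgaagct
The Klk8 probe shared at most 14 bases with a probe of another gene, Ero1l, and each of the other 3 shared 12 to 15. Over all 9 kallikrein probes the longest shared run was 12 to 17 bases of 60. The Klk7 probe shown covers 247 genomic bases with its 60, so it spans an intron, as do those of Klk10 and Klk11, which cover 644 and 386. The GC content was 43.3% for Klk8, 45.0% for Klk5, 53.3% for Klk14 and 55.0% for this Klk7 probe.

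Only 1 of the 9 probes, that of Klk8, was measurable in all 4 RNAs. Klk8, also called neuropsin, is a trypsin-like kallikrein known from brain and epidermis. The scanner software marks a spot as well above background when its brightness exceeds the background by the software's own test, and 51.4% of all probes had this mark in all 4 RNAs while 40.4% had it in none. Of the 8 probes without Klk8, 7 had the mark in none of the RNAs.

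The raw brightness of the Klk8 spot was 149.4 in wild-type TAM RNA and 141.1 in ER-Sox9flox/flox vehicle RNA, both in Cy5. In the Sox9-deleted RNAs, both in Cy3, it was 40.6 on the genotype array and 43.0 on the treatment array. Since the dyes differ in brightness, each value was set against the negative control spots of the same RNA, of which there were 153. Klk8 was 2.36 and 2.41 times their median in the Sox9-expressing RNAs, and 1.71 and 1.83 times in the Sox9-deleted RNAs. It was brighter than every negative control spot in all 4 RNAs, and by this measure both Sox9-expressing RNAs lay above both Sox9-deleted ones. The share of all probes ordered in this way was not computed. Divided by the local background of its own spot, Klk8 was at 2.79 in wild-type TAM RNA and 2.66 in vehicle RNA. Their Sox9-deleted partners were at 2.70 and 2.26, so by that measure the groups overlapped. The median local background of all spots was 55.5 in both Cy5 RNAs and 16 in both Cy3 RNAs. Neither ratio is therefore on the same scale in Cy5 and Cy3, and neither separates Sox9 status from dye. Klk8 was nevertheless a dim probe, with only 21.7% of the tested probes dimmer.

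The other members were nearer to the negative controls. Klk11, whose product is also called hippostasin, was the brightest of them relative to these: it had the mark in 1 RNA, the Sox9-deleted RNA of the genotype comparison, at 1.39 times the negative control median. It stood at 1.35 times in the other Sox9-deleted RNA, and at 1.09 and 1.24 times in the wild-type and vehicle RNAs, and it was brighter than all 153 negative control spots in 3 of the 4 RNAs and than 152 in wild-type TAM RNA. Klk5, the protease that can activate Klk7 and Klk14 precursors in skin, was between 0.991 and 1.11 times the median. Klk14, another trypsin-like member, was between 0.996 and 1.16 times, and Klk6, known from the nervous system as neurosin, between 0.991 and 1.18 times. Klk10 was between 0.954 and 1.24 times, and above every negative control spot in 1 RNA, the Sox9-deleted RNA of the treatment comparison. None of these 4 genes was marked as above background in any RNA.

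Klk7, the chymotrypsin-like kallikrein of the cornified layer, could be read 3 times. The first probe along the chromosome, shown above, was 1.13, 1.21, 1.07 and 1.36 times the negative control median in wild-type TAM, its Sox9-deleted partner, vehicle and its Sox9-deleted partner, above every negative control spot in the first and the last of these. The second was between 0.991 and 1.05 times and the third between 0.959 and 1.02 times. The 3 probes did not differ in their mark, which was absent in each RNA. These readings give no level for the 6 genes, and whether their transcripts were present below this limit was not detectable.

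**Figure D1:**
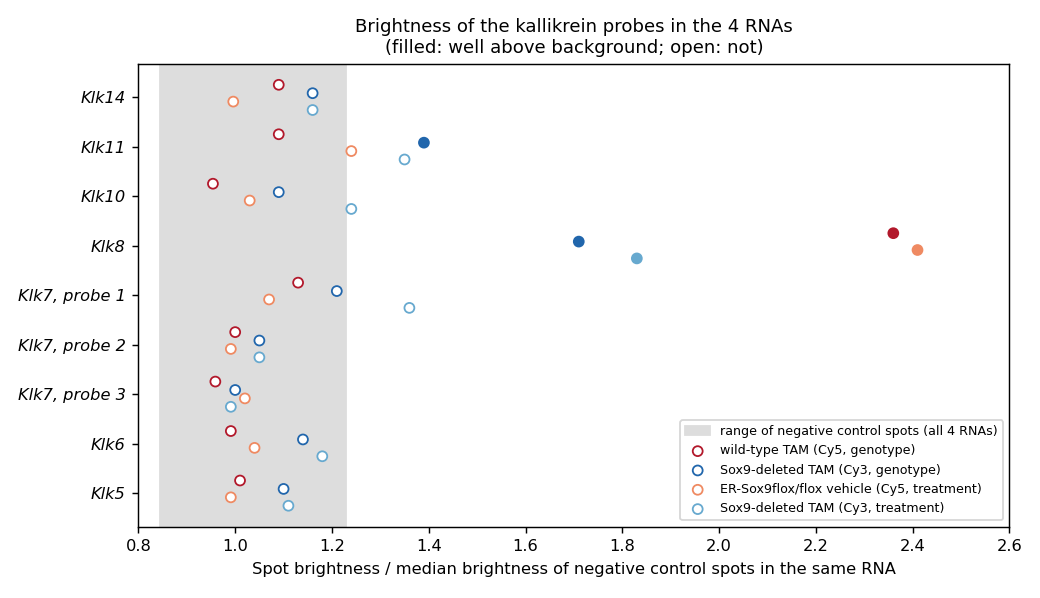
Spot brightness of the 9 kallikrein probes in each of the 4 RNAs, divided by the median brightness of the 153 negative control spots in the same RNA (horizontal axis, linear), with probes in genomic order on the vertical axis. Filled points are marked as well above background, and the grey band is the range of the negative control spots taken over all 4 RNAs together. A point inside the band can therefore lie above every negative control spot of its own RNA. Klk8 is filled and right of the band in all 4 RNAs, at 1.71 to 2.41, and Klk11 is filled in 1.

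Klk8 was higher with Sox9 on each array, without passing the test. After background correction and loess normalization, its brightness was 149.8 in wild-type TAM RNA against 119.9 in the Sox9-deleted RNA of that array. In the treatment comparison it was 158.1 with vehicle against 109.5 with TAM. The log2 ratio of Sox9-expressing over Sox9-deleted RNA was 0.32 for genotype and 0.53 for treatment, and its mean was 0.43 ± 0.15 (SD, n = 2), which is 1.34-fold. The limma adjusted p over 22731 probes was 0.178, and the unadjusted p was 0.0104. The adjusted threshold of 0.05 was passed by 0.00880% of the tested probes, and 9.50% were higher with Sox9 at an unadjusted p under 0.05, so Klk8 was 1 of 2160 such probes.

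Klk8 stood toward the upper end of all probes in this measure. Its mean was above that of 95.9% of the tested probes, and 511 probes (2.25%) were at least as high on each array. Being higher on both arrays was common in itself, at 34.6% of the tested probes. Klk8 was not among the 0.290% that were at least 2-fold higher on both. Klk8 had a single spot per array. Among 43 tested probes of similar brightness with replicate spots, the median SD between spots of an array was 0.0407 and 0.0724 on the log2 scale, which covers the noise between spots of 1 hybridization and not the spread between cultures, RNA preparations or dyes.

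The size of the Klk8 difference depended on how dim signals were handled, and its direction was the same under each of the 6 alternatives that could change its value with both arrays kept. With no background subtraction the mean log2 ratio was 0.39, and with an offset of 10 in place of 50 it was 0.68. In the table of processed values by the authors it was 0.67. From the processed signals of the scanner software, the log2 ratios were 1.59 and 1.28, so Klk8 was then at least 2-fold higher on both arrays, as were 1.28% of the tested probes. Under these 6, the limma adjusted p of Klk8 was between 0.0885 and 0.544. The methods' t-test on the first values, which uses the spread of Klk8 alone, gave an adjusted p of 0.606 and an unadjusted p of 0.153. With median centring the mean of Klk8 was 0.49, above that of 87.3% of the tested probes in place of 95.9%. Which array had the larger ratio changed between settings, so no order of the comparisons can be read from Klk8.

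**Figure D2:**
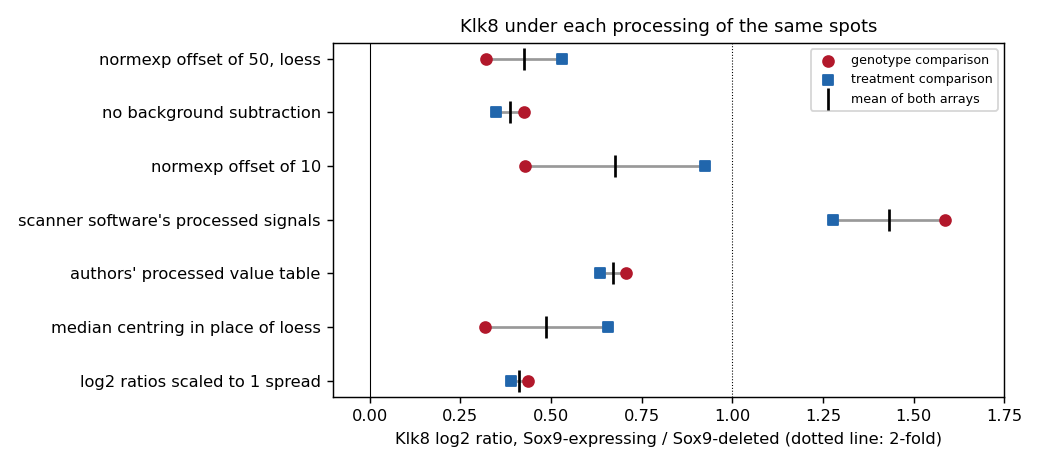
Klk8 log2 ratio of Sox9-expressing over Sox9-deleted RNA (horizontal axis) on the genotype array (circles), the treatment array (squares) and as their mean (vertical ticks), under 7 ways of processing the same spots. All values are above 0, and only the scanner software's signals place both arrays past 2-fold, with a mean of 1.43 against 0.43 for the first setting.

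For the members other than Klk8, a ratio compares readings at or near background, so no fold is given. Klk11 had the mark in 1 RNA and the others in none. On the genotype array the log2 ratios of the 8 probes other than Klk8 lay between -0.06 and 0.06, and on the treatment array between -0.16 and 0.05. The 16648 probes with no mark in any RNA held the middle 95% of their log2 ratios within -0.08 and 0.08 on the genotype array and within -0.19 and 0.20 on the treatment array. Every one of the 8 kallikrein probes was inside these ranges, and Klk8 was outside on both arrays. Of the 8, 7 belong to the probes that set the ranges, so their place inside could hardly differ. Klk8 had the mark, and the share of marked probes outside both ranges was not computed. From the scanner software's processed signals the means of these probes reached -0.82.

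The neighbours of Klk8 in the gene cluster had ratios closer to 0. From the Klk14 probe to the Klk1 probe, the array held 32 probes over 535 kb of chromosome 7, of which 23 were not members. Most of these belong to the Klk1b genes, the glandular kallikreins of rodents. Of the 32, 9 had the mark in all 4 RNAs and 18 in none, beside 51.4% and 40.4% of all probes. Of the 23, 9 were tested, with mean log2 ratios of -0.13 to 0.05 and limma adjusted p of 0.467 to 0.902. Of these, 6 were lower and 0 were higher on both arrays, beside 32.6% and 34.6% of all tested probes. Klk1b24, with a normalized brightness of 159.4, 152.2, 128.5 and 142.1 in the order wild-type TAM, its Sox9-deleted partner, vehicle and its Sox9-deleted partner, had log2 ratios of 0.07 and -0.15. The nearest tested neighbour on the far side of Klk5 was Klk4, with log2 ratios of -0.02 on both arrays, within the range of probes at background. The difference between Klk8 and these probes was not tested. Klk1b genes are close copies of each other, so signal in 1 of them may come from another.

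**Figure D3:**
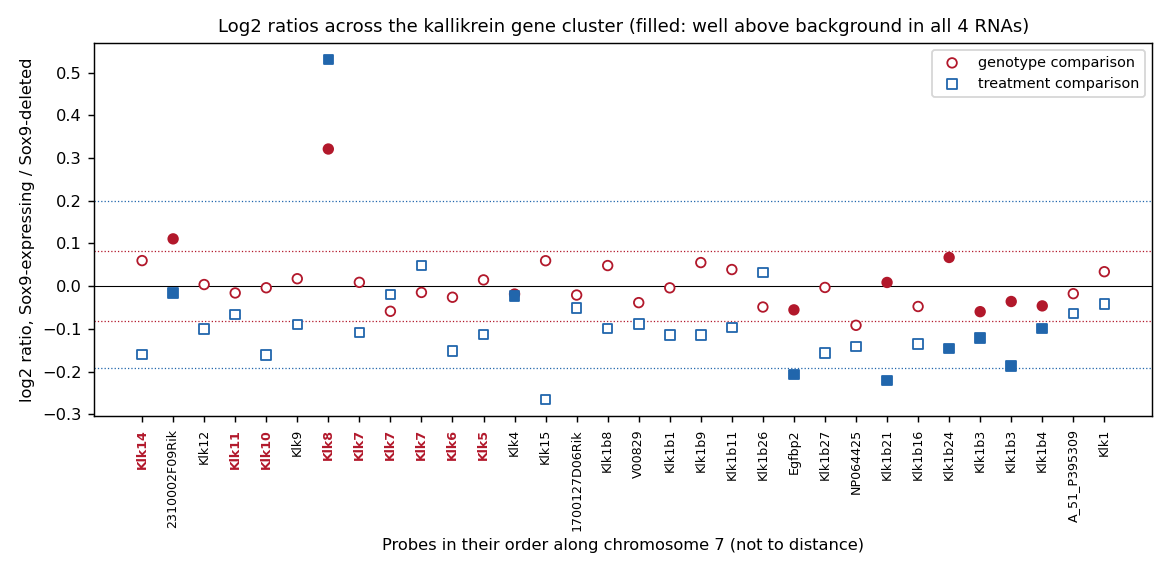
Log2 ratio of Sox9-expressing over Sox9-deleted RNA (vertical axis) for the 32 probes of the kallikrein cluster in chromosomal order (horizontal axis, evenly spaced, members in red bold), on the genotype array (circles) and the treatment array (squares). Filled symbols are well above background in all 4 RNAs, and dotted lines in the color of each array enclose the middle 95% of probes at background. Klk8, at 0.32 and 0.53, is the one probe above its lines on both arrays.

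Sox9 is a transcription factor, so the 250 bases before a transcript start that RefSeq (GRCm38.p6) lists for each member were searched for the letters AACAAT and ACAAAG, on both strands. These are common cores of SOX family binding motifs, and no match of 1 overlapped a match of the other in the members. The windows of Klk5, Klk6, Klk8 and Klk14 lie in part or whole inside the annotated gene. Other starts of these genes were not searched. Of the Klk11 windows, 1 ends where the annotated gene begins and the other lies inside the gene. All 8 members had a window, 10 in all. The window of Klk8 held neither motif. At least 1 was found in 3 windows, 1 each for Klk6, Klk7 and Klk11, beside 24.0% of all 32851 windows. AACAAT alone was in 9.4% of all windows and ACAAAG in 16.5%. These matches say nothing of binding.

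The partners of the kallikreins were read from the same fit. Over all genes tested, each read from its brightest probe, 33.8% were higher and 33.8% lower on both arrays, 0.535% were at least 2-fold different on both arrays in 1 direction, 19.5% had an unadjusted p under 0.05 and 0.0132% passed the adjusted threshold, with a median log2 ratio of 0.00. None of the genes in the lists that follow passed that threshold with limma. The lists were chosen with earlier results of these data known, so their counts beside these shares are descriptive and no independent test. Of 16 other kallikrein genes on the array, 5 were tested, 3 lower and 0 higher on both arrays, and 0 had an unadjusted p under 0.05.

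Membrane-bound and secreted serine proteases outside the kallikrein family were mostly lower with Sox9, without passing the test. Of 14 on the array with their Kunitz inhibitors, 11 were tested, and 8 were lower and 1 higher on both arrays. Their median log2 ratio was -0.33 on the genotype array and -0.27 on the treatment array, 5 of 11 had an unadjusted p under 0.05, beside 19.5% of all genes, and 0 were at least 2-fold different on both arrays. Plat, the tissue plasminogen activator, was at -1.27 and -0.85, a mean of -1.06 ± 0.29 (SD, n = 2) with a limma adjusted p of 0.108. St14, matriptase, which can activate kallikrein precursors in epidermis, was at -0.37 and -0.65, and its partner protease Prss8, prostasin, was at -0.33 and -0.38. Their limma adjusted p were 0.171 and 0.176. Plau, the urokinase plasminogen activator, was at -0.10 and -0.15 and Spint1, an inhibitor of matriptase, at -0.14 and -0.05. Spint2, a related inhibitor, was not well above background in any RNA. Klk8 therefore had the opposite sign to Plat, St14 and Prss8 on both arrays. When each array was centred on its median and not by loess, the tested probes had a median of 0.18, and the treatment array turned positive for St14 (0.06), Prss8 (0.11) and Plau (0.46), and Spint1 turned positive on both arrays, while Plat stayed lower.

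Of 13 genes on the array listed as protease inhibitors or members of their families, 9 were tested, and 1 was higher and 4 were lower on both arrays. Inhibition of kallikreins is not established for all of them. The median log2 ratio was -0.22 on the genotype array and 0.06 on the treatment array, and 5 of 9 had an unadjusted p under 0.05, beside 19.5% of all genes. The 1 higher on both arrays was Serpinb5, at 1.24 and 0.91 with a limma adjusted p of 0.0972. It is a serpin by family and not an established kallikrein inhibitor. Slpi, the secretory leukocyte protease inhibitor, was the one at least 2-fold different on both arrays. Its normalized brightness was 568.3 and 500.2 in the Sox9-expressing RNAs and 2339 and 1577 in the Sox9-deleted RNAs, with log2 ratios of -2.04 and -1.66 and a limma adjusted p of 0.0833. Spink5, the kallikrein inhibitor LEKTI, was a dim probe, with a normalized brightness of 109.3 in wild-type TAM RNA against 116.8, and of 183.7 in vehicle RNA against 104.2. Its log2 ratios of -0.10 and 0.82 had opposite signs, so the arrays did not agree on a direction.

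Most known substrates were not measurable. Of 19 on the array, 13 were not well above background in any RNA, beside 40.4% of all probes. Among the 13 were the corneodesmosome protein Cdsn and F2rl1, the receptor PAR2. Of the 6 tested, 2 were higher and 2 were lower on both arrays, 2 of 6 had an unadjusted p under 0.05, beside 19.5% of all genes, and 0 were at least 2-fold different on both. Their median log2 ratio was -0.02 on the genotype array and 0.15 on the treatment array.

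**Figure D4:**
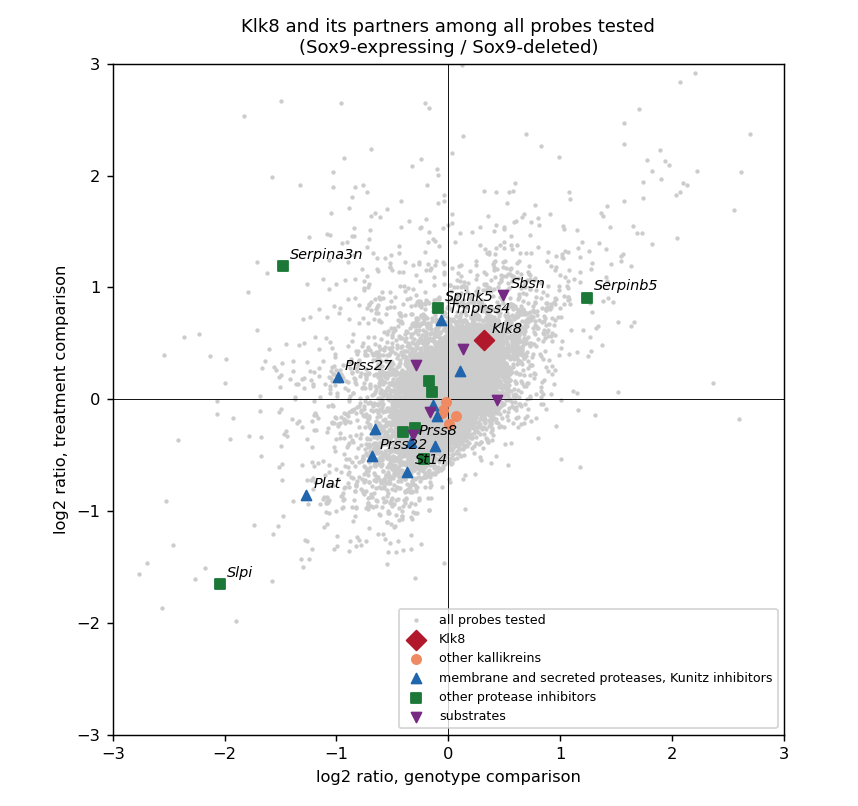
Log2 ratio of Sox9-expressing over Sox9-deleted RNA on the genotype array (horizontal axis) and the treatment array (vertical axis) for the tested probes (grey, 11 outside the axes), with Klk8 (diamond) and the tested genes of the lists of other kallikreins, other proteases with Kunitz inhibitors, protease inhibitors and substrates. Klk8 is in the upper right at 0.32 and 0.53, Slpi in the lower left at -2.04 and -1.66.

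Cornified layer genes, which mark the cells where these kallikreins are known to act, were mostly measurable and lay on both sides of 0. Of 23 on the array, 18 were tested, and 10 were higher and 6 were lower on both arrays. Their median log2 ratio was 0.11 on the genotype array and 0.33 on the treatment array. In all, 12 of 18 had an unadjusted p under 0.05, beside 19.5% of all genes. The list was chosen with earlier results of these data known, so such shares do not test it. On both arrays 5 were at least 2-fold higher and 0 at least 2-fold lower, beside 0.535% of all genes in either direction. These 5 were Krt10, the suprabasal keratin, with log2 ratios of 1.78 and 2.14, the cornified envelope protein Lor at 1.41 and 1.09, the cysteine protease inhibitors Csta at 1.57 and 2.47 and Stfa1 at 2.18 and 3.16, and Dapl1 at 2.31 and 3.25. Their limma adjusted p lay between 0.0791 and 0.107. Other members of the list were lower with Sox9: Ivl, the envelope protein involucrin, was at -2.52 and -0.91, the envelope protein Sprr1a at -1.08 and -0.91, and Crct1 at -0.55 and -1.47. Klk8 had the sign of the first 5 and not of these 3.

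Markers of cell types differed between the RNAs as well. In RNA from whole cultures, fewer cells of a type and less RNA per cell cannot be told apart. Of 11 basal cell markers, all of them tested, 10 were higher with Sox9 on each array, and their median log2 ratio was 1.04 for genotype and 0.58 for treatment. Their summed normalized brightness was 388200 and 334100 in the Sox9-expressing RNAs against 123800 and 122400 in the Sox9-deleted RNAs, with most of each sum from the keratins Krt5, Krt14 and Krt15. Of 11 luminal markers, 9 were tested, 4 higher and 3 lower on both arrays, and Foxa1 was not well above background in any RNA. The 9 stromal markers, which should be scarce in epithelial spheres, were all tested, and their median log2 ratio was -0.77 on the genotype array and 0.85 on the treatment array. Their summed normalized brightness was 35940 in wild-type TAM RNA and 61580 in its Sox9-deleted partner, and 92450 with vehicle against 55540 with TAM. Of the suprabasal list, 6 of 7 markers were tested, 3 higher and 2 lower on both arrays. Of the immune list, 3 of 8 were tested, 0 higher and 2 lower on both arrays, with Ptprc at background. The 2 lower were Cd68, at -0.69 and -0.77, and Lyz2, at -0.90 and -0.15. Of the endothelial list, 2 of 4 were tested, 0 higher and 1 lower on both arrays, with Pecam1 at background. The lower gene was Cdh5, at -0.12 and -0.16. Klk8 was higher with Sox9 on both arrays, as were 10 of the 11 basal markers. All 9 stromal markers were lower on the genotype array, and all of them except Dcn were higher on the treatment array. The part of any of these markers in the Klk8 ratio was not tested.

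Among 14059 genes well above background in all 4 RNAs, those whose pair of log2 ratios lay nearest to that of Klk8 included the small GTPase Rnd3, the membrane protease Adam10, the transporter Mfsd4 and the G0/G1 switch gene G0s2. The Euclidean distances of these 4 over the 2 arrays were 0.0128 to 0.0191 on the log2 scale, less than the SD of Klk8 between the arrays. With 2 arrays, many genes share a pair of values this closely, and the list describes no more than that.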

How the data were processed

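The 4 RNAs were compared on 2 Agilent arrays with 2 dyes each. The titles, genotypes, treatments and dyes of the labels gave each RNA its group. Source names were set aside: they read SOX9 for Cy5 and control for Cy3 on each array. Per the file headers, the authors' scanner software (Feature Extraction 10.5.1.1, annotation build mm9) deposited mean spot intensity and median local background intensity without correction, processed intensity after background and dye correction, and the log10 ratio of Cy5 over Cy3. A table deposited by the authors was read as log2 ratios from its slopes of 3.12 and 3.14 on the log10 ratios. The labels name limma, and the steps behind the table are not given in the sources used here.

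Mean intensities were background corrected with normexp (offset of 50), control spots and 126 and 130 outlier spots were left out, and loess was applied within each array in limma 3.58.1 (R 4.3.3). Spots of a probe were averaged. A probe was tested when both arrays had it well above background in Cy5, or both in Cy3 (22731 of 41174). The mean log2 ratio was tested against 0 with lmFit and eBayes, two-sided, with 1 residual degree of freedom and Benjamini-Hochberg adjustment over all tested probes. The offset understates the log2 ratios of dim probes such as Klk8. A second rule, without a test, took probes at least 2-fold different in 1 direction on both arrays. In all, 2 probes were called (0 higher with Sox9), 3990 had an unadjusted p under 0.05 and 95 passed the 2-fold rule. Precision is limited by the number of arrays.

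The brightest probe stood for a gene. Named were every member probe, every listed partner at least 2-fold different on both arrays, a fixed set of proteases, inhibitors and receptors, and, of the 5 genes of most like pattern, 4, since some items are not reported here. Klk1b24, Klk4, Serpinb5, Ivl, Sprr1a, Crct1, Dcn, Cd68, Lyz2, Cdh5, Ptprc and Pecam1 were named after their values were seen. The members and lists were chosen with earlier results of these data known. Alternatives changed the background correction, offset, normalization, filter, signals, reading of a gene or test, or left out an array. The code was tested on simulated data. Other steps used Python 3.11.15, pandas 2.3.3, numpy 2.4.6 and matplotlib 3.10.9.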

Additional observations from a re-analysis of the deposited data

How the results depend on the processing

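Klk8 was higher with Sox9 in every setting run, although changes of filter, test or reading of a gene leave its ratio as it is. It did not pass the adjusted threshold of 0.05 in any setting with both arrays, some of which called 0 probes in all. Its log2 ratio was 0.32 to 0.53 when either array was left out, with no test. No paired analysis was possible because each array is already 1 pair of RNAs and there is 1 group of arrays. With the scanner software's signals, 1 kallikrein probe (Klk8) passed the 2-fold rule in place of 0, and the medians of the other kallikreins, the proteases with Kunitz inhibitors and the inhibitors were -0.16, -0.47 and -0.43. The number of all probes called by limma, 2, became 0 without background subtraction, with an offset of 10, with the scanner software's signals and with scaled log2 ratios, and the methods' t-test called 0 (1930 at an unadjusted p under 0.05). It became 68 with the table by the authors, 522 with median centring and 21 without the filter. All probes past 2-fold, 95, became 600 with the scanner software's signals, 147 with the table by the authors and 298 to 382 on a single array. Median centring moved the median of all tested probes to 0.18, and relative to it the protease median of -0.0821 stayed lower and the substrate and cornified medians of 0.43 and 0.52 stayed higher; 2 inhibitors then passed 2-fold. The protease median was -0.41 with an offset of 10, -0.41 with the table by the authors, -0.20 without the filter and -0.33 to -0.27 on a single array, where 0 to 1 of them passed 2-fold. Without the filter the cornified median was 0.0592. On a single array the inhibitor median was -0.22 to 0.0632 with 2 to 3 past 2-fold, the substrate median -0.0173 to 0.147, and 7 to 8 cornified genes passed 2-fold. The causes were not tested. Signal over background limits all members other than Klk8.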
